A study of Mus musculus with 109 samples.

Results

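The contacts of 1 bait on mouse chromosome 16, named B46 after its position and lying in an intron of Phldb2, were examined in 7 libraries of circular chromosome conformation capture sequencing (4C-seq). The libraries were selected on measured reads, because in this group of columns the titles do not match the bait that the reads show. Of the 39 columns titled with a chromosome 16 or 17 bait or with 1.5 h, the 7 with the highest percent of reads within 100 kb of the bait were taken, out of 109 libraries in all. That percent was 16.96, 15.4, 14.8, 13.6, 11.3, 8.90 and 6.64 in libraries 1 to 7, which are numbered in this order. The lowest of the 7 had 6.64% and the highest of the other 32 columns had 0.320%, so the threshold fell in a wide gap.

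The series measured 12 baits in C127 cells, a mouse mammary epithelial line, which were arrested in mitosis with nocodazole and released into G1, harvested in G2 after release, or held in G0 by serum starvation. All 7 libraries carry titles of cells released from mitosis, 4 with 2 h, 2 with 1.5 h and 1 with 3 h. Only library 4 is titled as B46, and the others are titled as the chromosome 16 baits B41, B48 and B30, the chromosome 17 baits B50 and B76, and the chromosome 8 bait B118. Because the titles do not match the reads, no time was assigned to a library and no time course was drawn. For comparison, 7 libraries each of the other chromosome 16 baits were found by the same rule: B48 in an intron of Morc1, B41 in a gene-free stretch 612978 bp from Lsamp, and B30, 4547 bp from Fam43a. All these libraries are from 1 cell line, and where nothing reliable says which cultures they came from, p-values measure the spread between libraries only. Libraries of the baits stand side by side in the columns in a repeating order, and the tests did not use this as a pairing.

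4C-seq reads the fragments that were ligated to 1 chosen fragment, the bait, in cross-linked nuclei, so each read reports a site that lay near the bait in space. Contacts are known to be densest within a topologically associating domain, a stretch of up to a few megabases whose parts meet more often with each other than with their surroundings. Beyond it, gene-rich and GC-rich stretches tend to contact one another, and gene-poor, AT-rich stretches likewise, a pattern known as A and B compartments, which goes along with early and late replication. Phldb2 encodes a membrane-associated protein that helps to anchor microtubule ends at the cell cortex.

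The bait sequence is shown because it fixes what every value here is measured from. The B46 primer lies at chr16:45838128-45838147 (mm9, plus strand), in an intron of Phldb2 (ENSMUSG00000033149.9, 45746346 to 45953711) and in no annotated exon, and it runs into the HindIII site at 45838144. The 300 bases around it, chr16:45837988-45838287 on the plus strand, are printed with the HindIII site in capitals:
B46 bait: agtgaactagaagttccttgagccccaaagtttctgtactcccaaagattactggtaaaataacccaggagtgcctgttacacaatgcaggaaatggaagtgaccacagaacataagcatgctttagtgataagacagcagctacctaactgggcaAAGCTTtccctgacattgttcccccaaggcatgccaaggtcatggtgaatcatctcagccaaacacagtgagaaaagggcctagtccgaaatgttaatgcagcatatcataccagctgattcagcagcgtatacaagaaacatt
The 4 primers of the chromosome 16 baits, printed with the bases that reach into the HindIII site in capitals, show the bases from which each library was amplified:
B46: gctacctaactgggcaAAGC
B48: ggctgtagcttagggAAGC
B41: aaggcacaggtagccAAGC
B30: cggaaactcagcggtaAAGC
These 300 bases hold 44.3% GC and 0 matches to GATC, the DpnII site. The 500-kb bin of the bait has 41.2% GC and 7 gene starts, against 39.4% and 6 for B48, 37.5% and 0 for B41, and 47.0% and 3 for B30.

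Read totals per library ran from 186019 to 3081112 with a median of 1381420. They fell into 3 separate ranges, in which B46 had 2, 2 and 3 libraries, and so had each of the other baits. Between 38.0% and 71.7% of the 30962 HindIII sites of chromosome 16 were captured, that is, had at least 1 read, and between 4657 and 82008 of 792390 sites on other chromosomes. Library 1 captured more sites than any other of the 7 and library 7 the fewest. Library 7 stood apart in several measures given below. Between 6.51% and 29.4% of the sites that the smaller library of a pair captured on other chromosomes were shared, under the limit of 50% set for counting a pair once, so all 7 were counted. That was 2.22 to 7.97 times the number expected for sites drawn at random, with a median of 3.14 and the highest for libraries 2 and 5. The limit therefore does not show that the 7 libraries are independent.

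Near the bait, contacts were densest toward the start of Phldb2 and fell off more steeply on the other side. Values in this paragraph are reads in 100-kb bins as a percent of chromosome 16 reads more than 100 kb away. Reads within 100 kb of the bait chose the libraries and are only described: the bins on either side held 9.01% ± 3.25 toward the centromere and 11.7% ± 4.28 toward the telomere (SD, n = 7). The highest bin outside that window was 100 to 200 kb toward the telomere, chr16:45938129-46038128, which holds the starts of Phldb2 and of Plcxd2, a gene of the phospholipase C X-domain family. It held 8.53% ± 4.02 of the reads (SD, n = 7), with 1.63% in the lowest library, a median of 10.2% and 13.0% in the highest. In 20-kb bins the mean was 1.35% ± 0.626 at 40 to 60 kb and already 2.59% ± 1.29 at 80 to 100 kb. It was 3.02% ± 1.43 at 100 to 120 kb, the bin of the Phldb2 start, and 3.46% ± 0.803 in the first 20 kb (SD, n = 7). The bins nearer than 100 kb lie in the window that chose the libraries, so they are only described and give no test of a rise. At 100 to 120 kb library 7, with 0.619%, was the lowest of the 7.

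The matching bin on the centromere side, 100 to 200 kb away, holds the starts of BC016579, Tmprss7, a membrane serine protease, and Tagln3, a transgelin family gene. It held 2.38% ± 0.555 (SD, n = 7), with 1.74% in the lowest library, a median of 2.33% and 3.43% in the highest. From 200 to 300 kb toward the telomere, where Cd96, an immunoglobulin family receptor of T and NK cells, starts, the share was 1.95% ± 0.746 (SD, n = 7). The last 2 of the 5 highest bins outside the window were 300 to 400 kb toward the telomere, with 1.10% ± 0.134, and 600 to 700 kb, with 1.10% ± 0.174 (SD, n = 7). The latter holds the start of Pvrl3, which encodes the cell adhesion protein nectin-3, and lay above the 0.768% ± 0.0962 of the bin at 400 to 500 kb, nearer to the bait. In that nearer bin 80.0% of sites had a read in any of the 109 libraries, against 94.2% in the bin of Pvrl3.

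On the centromere side the share fell to 0.334% ± 0.132 at 300 to 400 kb, the bin of Gm609 and Slc9a10, and was 0.731% ± 0.197 at 700 to 800 kb, the bin of Ccdc80, a secreted matrix protein (SD, n = 7). The lowest bin within 1 Mb on this side was that of Cd200r2, a receptor of the Cd200r family, with 0.222% ± 0.0685 (SD, n = 7), and only 50.0% of its sites had a read in any of the 109 libraries. Cd200, an immunoglobulin family glycoprotein that binds such receptors, lies on this side in a bin with 0.584% ± 0.105, and Btla, an inhibitory lymphocyte receptor, in a bin with 0.593% ± 0.133 (SD, n = 7). Of the genes that start within 2 Mb, 29 lie toward the centromere and 5 toward the telomere, so the side with fewer genes held more reads up to 1 Mb.

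**Figure D1:**
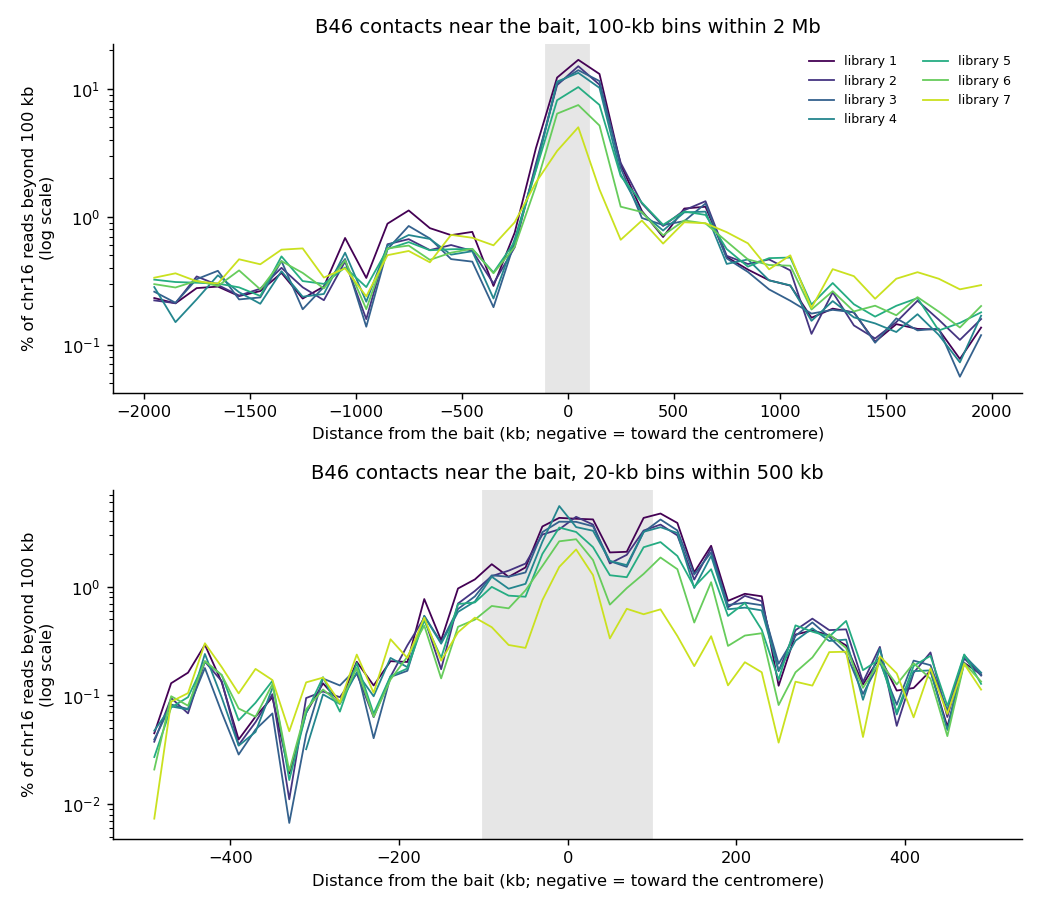
Reads of the 7 B46 libraries by distance from the bait, as a percent of chromosome 16 reads more than 100 kb away (log scale; a value of 0 is not drawn), in 100-kb bins (top) and 20-kb bins (bottom); the grey band is the window that chose the libraries. The level stays high up to 200 kb toward the telomere, where the mean bin holds 8.53%, and drops to 2.38% at the same distance toward the centromere.

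Summed from 100 kb to 2 Mb, reads were more frequent on the telomere side. The log2 ratio of the telomere side over the centromere side was 0.02 in the lowest library, 0.89 at the median and 1.15 in the highest, with a mean of 0.81 ± 0.40 (SD, n = 7) and all 7 libraries above 0 (two-sided exact sign-flip permutation test, p = 0.0156, the smallest that 7 libraries allow; Benjamini-Hochberg adjusted p = 0.0417 over 16 exact tests). The sign depended on the distance: the ratio was 1.63 ± 0.83 at 100 to 200 kb, 1.24 ± 0.60 at 200 to 500 kb, 0.37 ± 0.24 at 500 kb to 1 Mb and -0.72 ± 0.25 at 1 to 2 Mb (SD, n = 7), where all 7 libraries were below 0. It rested on read numbers: with each captured site counted once, the mean ratio was -0.09, and with reads capped at the 95th percentile it was -0.06. The telomere side has 632 HindIII sites and the centromere side 676, and 65.4% to 81.5% of a side's sites were captured in a library. Ratios of captured sites partly follow these unequal totals, so a mean slightly below 0 does not show a reversal. Without library 7 the mean ratio was 0.94 (exact permutation p = 0.0313, the smallest that 6 libraries allow, adjusted 0.0664). Library 7 had a ratio of -0.18 at 100 to 200 kb, where the other libraries lay between 1.57 and 2.23.

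Farther out, most chromosome 16 reads beyond 100 kb lay more than 2 Mb from the bait. Reads from 100 kb to 2 Mb were 27.8% ± 4.68 of them, from 2 to 10 Mb 20.6% ± 5.44, from 10 to 30 Mb 32.8% ± 3.91 and beyond 30 Mb 18.8% ± 4.57 (SD, n = 7). The share from 100 to 500 kb ran from 7.88% in library 7 to 22.6% in library 1, in the order of the percent within 100 kb that chose the libraries, so this neighbouring range is not independent of the choice. Libraries 6 and 7, the shallowest, had the largest shares from 2 to 10 Mb, with 25.01% and 30.6%.

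**Figure D2:**
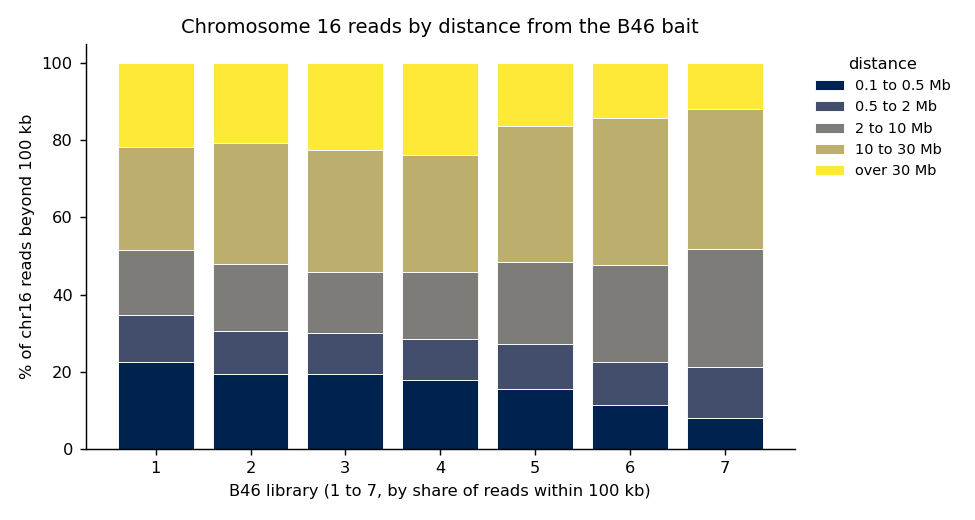
Share of chromosome 16 reads more than 100 kb from the B46 bait that lay in each range of distance, as stacked bars in percent for libraries 1 to 7. The nearest range shrinks from 22.6% in library 1 to 7.88% in library 7, and the range from 2 to 10 Mb grows from 16.8% to 30.6%.

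The share within 2 Mb was compared with the other baits to ask whether B46 held more of its contacts close by. B48 had 26.2% ± 6.75 and B41 26.0% ± 6.12 (SD, n = 7), a difference from B46 of 1.58 and 1.82 percentage points, which was within the spread between libraries (two-sided exact permutation test, p = 0.617 and 0.545). With 200 kb left out beside the bait these differences were -3.28 and -4.22 points (exact permutation tests, adjusted p = 0.323 and 0.125). B30 had 43.9% ± 15.5 (SD, n = 7), and B46 minus B30 was -16.1 points (exact permutation test, p = 0.0286, adjusted p = 0.0653). With splits only within the 3 ranges of depth, that p was 0.00833 (exact permutation test, adjusted 0.0222). Within the ranges of depth the difference between B46 and B30 was -3.16 points for the shallow libraries, -22.9 for the middle and -20.1 for the deep ones.

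Chromosome 16 held 71.4% ± 6.87 of all reads more than 100 kb from the bait (SD, n = 7), from 63.7% to 86.0% with a median of 70.3%. The highest value was that of library 7, without which the difference from B41 below was -0.619 points. The other baits had 67.1% ± 9.62 (B48), 69.6% ± 5.46 (B41) and 72.3% ± 7.17 (B30) (SD, n = 7), and no difference exceeded the spread between libraries (exact permutation tests, p = 0.357, 0.625 and 0.754).

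Beyond 2 Mb, B46 contacted gene-rich, GC-rich stretches of chromosome 16 more often than distance predicted, and gene deserts less often. The profile is the log2 of observed over expected captured sites in 500-kb bins, with the expectation from a smooth curve of distance and the number of HindIII sites in the bin, after drawing 9586 captured sites from each library. Of 182 bins, 45 were above 0 in all 7 libraries and 38 below 0 in all 7. The 25 highest bins had a median GC content of 44.4% and a median of 5 gene starts, and 2 of them had none. The 25 lowest had 36.7% GC and a median of 0 gene starts, and 21 of them had none. Over all bins the medians were 40.4% and 2.

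The highest bin, chr16:11000001-11500000, 34.6 Mb toward the centromere, holds 9 gene starts, among them Litaf, Txndc11 and the translation termination factor Gspt1. Its log2 observed over expected was 0.17 in the lowest library, 0.53 at the median and 0.82 in the highest, all above 0. The second, chr16:30000001-30500000, holds Hes1, a repressor that acts downstream of Notch, and Atp13a3, and it had 0.30, 0.41 and 0.64. The third, chr16:25000001-25500000, holds the start of Tprg and had 0.28, 0.41 and 0.65. The fourth, chr16:18500001-19000000, holds Tbx1, a T-box factor of pharyngeal development, and Cdc45, a component of the replicative helicase. It had 0.02 in the lowest library, 0.45 at the median and 0.69 in the highest. The fifth, chr16:92500001-93000000, lies 46.9 Mb toward the telomere, holds the start of Runx1, a regulator of blood cell development, and had 0.21, 0.38 and 0.70. All 5 bins were above 0 in each of the 7 libraries, 4 of them toward the centromere and 1 toward the telomere. Bins were named only where all but at most 1 library had the same sign, so this agreement was largely set by the choice.

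The lowest bin, chr16:3000001-3500000 beside the centromere, was at -4.03 ± 0.55 (SD, n = 7), but only 9.02% of its sites had a read in any of the 109 libraries, and B48 was at -3.99 ± 0.91 there. The next, chr16:19000001-19500000, holds immunoglobulin lambda constant genes and the olfactory receptors Olfr164 to Olfr166. It was at -0.86 ± 0.23 (SD, n = 7), and 62.5% of its sites had a read in any library. A cluster of olfactory receptor genes at chr16:59000001-59500000, with 20 gene starts, was at -0.72 ± 0.25, with 66.4% of sites seen. The bins chr16:68500001-69000000 and chr16:61500001-62000000 hold no gene start and were at -0.69 ± 0.34 and -0.68 ± 0.33 (SD, n = 7), with 77.9% and 75.9% of sites seen. All 5 were below 0 in each of the 7 libraries, where the same rule of naming applied. All 5 had a smaller share of usable sites than the 5 highest bins, where it was 92.6% to 98.6%. The part of this share in the values was not tested.

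**Figure D3:**
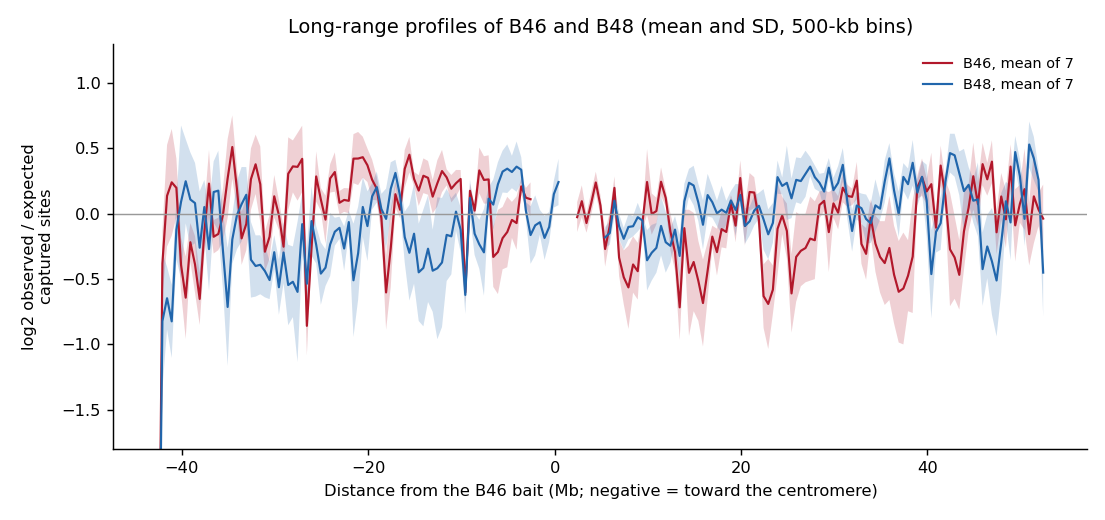
Long-range profile of B46 and B48 as mean log2 observed over expected captured sites in 500-kb bins, by distance from the B46 bait; the bands are the SD over 7 libraries, and the axis leaves out the bin beside the centromere, at -4.03 for B46. Over long stretches on both sides the 2 curves lie on opposite sides of 0.

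The bins of a fixed set of genes were read in the same profile. In the stretch syntenic to the human DiGeorge region, the B46 profile was 0.36 ± 0.20 at Dgcr2 and 0.31 ± 0.28 at the adaptor gene Crkl (SD, n = 7). B48 was at -0.52 ± 0.27 and -0.55 ± 0.31 there. At Crebbp, a histone acetyltransferase gene near the centromere, B46 was at 0.14 ± 0.39, with 5 of 7 libraries above 0 and library 7 at -0.67. Fam43a, beside the bait B30, was at 0.27 ± 0.05, with all 7 libraries between 0.21 and 0.32. On the far side of the bait, Dyrk1a, a protein kinase gene, was at 0.36 ± 0.17 and above 0 in all 7, and App, the gene of the amyloid precursor protein, at 0.28 ± 0.14, also in all 7 (SD, n = 7). At App, B48 was at 0.28 ± 0.12, B41 at 0.12 ± 0.10 and B30 at 0.11 ± 0.06 (SD, n = 7).

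The bins of Ncam2 and Robo1, which hold 1 gene start each, were below 0 in the mean. The bin of Ncam2, a neural cell adhesion gene, was at -0.38 ± 0.32 and below 0 in 6 of 7 libraries, and that of Robo1, an axon guidance receptor, at -0.26 ± 0.26 and below 0 in 6 of 7 (SD, n = 7). In both it was library 7 that lay above 0, at 0.21 and 0.11. B48 was at 0.25 ± 0.16 and 0.31 ± 0.18 there. Robo2, with 0.07 ± 0.10, Erg and Ets2, which share a bin at 0.08 ± 0.14, and Lsamp, with -0.07 ± 0.20, had libraries on both sides of 0. Nearer to the bait, Gap43, a growth cone protein gene, was at 0.21 ± 0.06 and Alcam, a cell adhesion gene, at 0.20 ± 0.09, each above 0 in all 7. Morc1 and Dppa4, which share a bin, were at -0.03 ± 0.11 and Cd47 at 0.08 ± 0.09 (SD, n = 7).

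**Figure D4:**
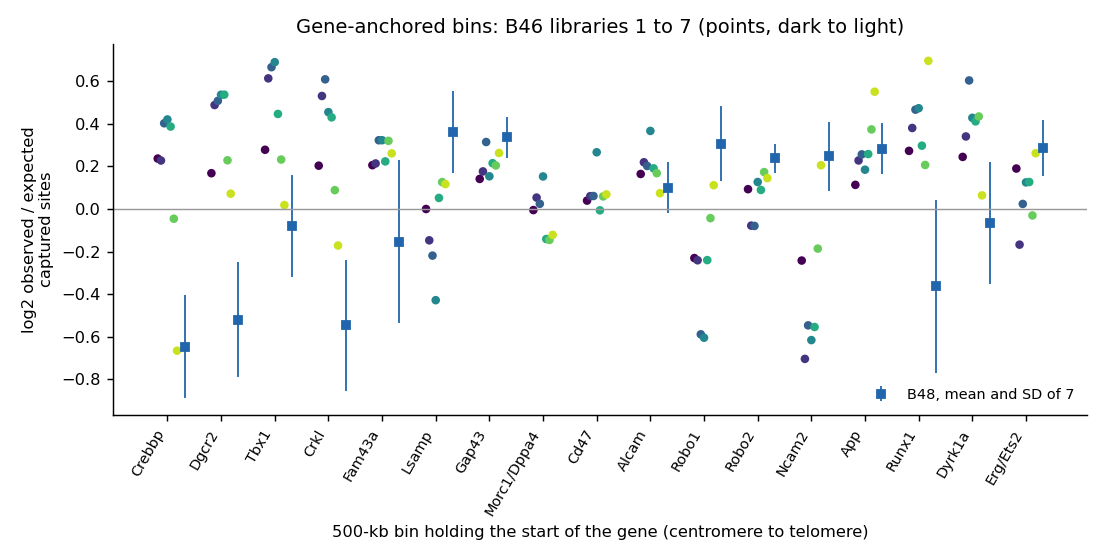
Log2 observed over expected captured sites in the 500-kb bins that hold the starts of named genes, with the 7 B46 libraries as points (library 1 dark, library 7 light) and B48 as squares with SD over 7. Dgcr2, Crkl and Runx1 have a mean above 0 in B46 and below 0 in B48, and Robo1 and Ncam2 lie below 0 in all B46 libraries but library 7. At Dyrk1a the B48 mean is near 0, at -0.07 ± 0.29 (SD) with 3 of 7 libraries above 0.

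The relation with base composition was compared between baits with 1 value per library. Spearman's rho of the B46 profile with GC content over 500-kb bins was 0.61, 0.62, 0.65, 0.64, 0.56, 0.40 and 0.00 in libraries 1 to 7. Its mean was 0.50 ± 0.24 for B46, -0.27 ± 0.19 for B48, -0.21 ± 0.29 for B41 and 0.54 ± 0.09 for B30 (SD, n = 7). B46 differed from B48 by 0.76 and from B41 by 0.71 (two-sided exact permutation tests, p = 0.00117 and 0.00175, adjusted 0.00466 and 0.00559), and from B30 by -0.05, within the spread (exact permutation test, p = 0.743). The same measure with the number of gene starts gave 0.41 ± 0.20 for B46, -0.31 ± 0.18 for B48, -0.25 ± 0.22 for B41 and 0.38 ± 0.14 for B30 (SD, n = 7; exact permutation p = 0.000583, 0.00117 and 0.72). The rho of the mean B46 profile with the number of HindIII sites per bin was -0.26, against 0.21 for B48; its part in the relation was not tested.

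Library 7 had a rho near 0 with both measures, and libraries 6 and 7, the 2 of the shallowest range, lay below the other 5. Within that range B46 and B41 differed by 0.02 in rho with GC content, and B46 and B48 by 0.22. Within the middle range the differences were 1.13 and 1.09, and within the deep range 0.89 and 0.91. With splits only within ranges of depth the p-values were 0.00833 for B41 and 0.00556 for B48 (exact permutation tests, adjusted 0.0267 and 0.0178). Without library 7 of B46, but with all libraries of B41 and B48 kept, the differences in rho with GC content were 0.79 and 0.85.

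**Figure D5:**
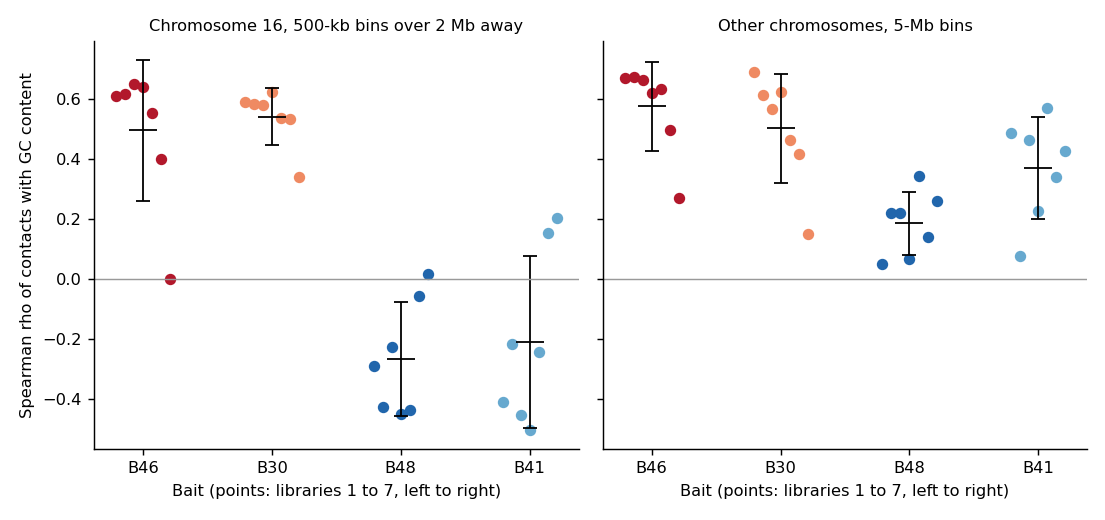
Spearman's rho of contacts with GC content in each library of the 4 chromosome 16 baits (points, libraries 1 to 7 from left to right; bars, mean and SD), for chromosome 16 bins (left) and bins of other chromosomes (right). On chromosome 16, 6 of the 7 B46 libraries lie between 0.40 and 0.65 and library 7 at 0.00, while all B48 libraries lie below 0.02.

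As a description over bins, which are not independent and share HindIII sites and base composition, the mean profile of B46 had a rho of 0.85 with that of B30, 15.2 Mb away, over 173 bins. It had -0.30 with that of B48, 2.76 Mb away, over 176 bins, and -0.33 with that of B41, 4.92 Mb away, over 173. Without library 7 these were 0.88, -0.36 and -0.38. Of the 3 baits, the nearest was not the most like. Single B46 libraries had a rho of 0.80 to 0.93 with the mean of the other 6, except library 7 with 0.31. Library 7 had 0.38 with the mean profile of B48, where the other B46 libraries had -0.01 to -0.43.

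Read counts of 500-kb bins more than 5 Mb from both baits were then tested bin by bin (edgeR's quasi-likelihood test, Benjamini-Hochberg over all 3 comparisons, threshold 0.05). Against B48, 121 of 164 bins passed (73.8%), 61 higher and 60 lower in B46. Of the 61 higher bins 45 lay toward the centromere, against 16 of the 60 lower ones and 75 of all 164 tested. The median GC content of the higher bins was 44.4%, against 37.6% for the lower ones and 40.9% for all tested. Against B41, 98 of 160 passed (61.2%), 48 higher, with a median GC content of 44.3%, and 50 lower, with 37.5%. With the decay with distance from each bait taken out as an offset, 130 bins passed against B48 (79.3%) and 130 against B41 (81.2%).

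Against B30, 94 of 149 bins passed (63.1%), but these followed distance: all 45 higher bins lay toward the telomere, farther from B30, and all 49 lower bins toward the centromere. With the distance decay as an offset, 17 of 149 passed (11.4%), 8 higher and 9 lower in B46. Of these, 15 were among the 94, and 11 of the 15 had the same sign in both. Scaling by bin totals in place of TMM gave 116 calls against B30, of which 60.3% were higher in B46 in place of 47.9%, and moved the median difference from 0.33 to 0.55. Without library 5 there were 66 calls, 25.8% of them higher, and without library 2 there were 72, 30.6% of them higher.

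Several bins separated B46 from B48 without overlap between libraries. Levels are CPM, counts scaled to the total over bins. The bin chr16:91500001-92000000, with the interferon receptor gene Ifngr2, the purine synthesis gene Gart and the endocytic scaffold gene Itsn1, was higher by 1.84 ± 0.24 (SE; edgeR adjusted p = 2.4e-05). It held 3503, 9112 and 10458 in B46 against 1732, 2225 and 2718 in B48. Bins of Parn at chr16:13500001-14000000, Lpp at chr16:24000001-24500000 and Hes1 at chr16:30000001-30500000 were higher by 1.69 ± 0.25, 1.67 ± 0.27 and 1.55 ± 0.29 (SE).

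In the other direction, the bin chr16:88500001-89000000, with claudin and hair keratin-associated protein genes (Cldn17, Cldn8, Krtap24-1), held 2111 in the lowest B46 library, 2304 at the median and 3179 in the highest, against 6081, 8091 and 12448 in B48. The log2 difference was -1.78 ± 0.19 (SE; edgeR adjusted p = 6.47e-06). The bin of Ncam2 had -1.42 ± 0.22 (SE; edgeR adjusted p = 5.61e-05). Of the 3 others, chr16:83000001-83500000 had -1.73 ± 0.21, chr16:71000001-71500000 had -1.56 ± 0.25 and chr16:75000001-75500000 had -1.51 ± 0.18 (SE), and none of them holds a gene start. Bins were named only where libraries did not overlap between the baits, which held for 49 of the 121 called and 49 of all 164 tested.

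Against B41, the bin of Runx1 was highest relative to the other bait, with 2576, 6682 and 10453 CPM at the lowest, median and highest B46 library, against 1147, 1433 and 1908. The log2 difference was 2.18 ± 0.29 (SE; edgeR adjusted p = 3.83e-05). The bins of Nfkbiz, an inhibitor of kappa B family gene, at chr16:55500001-56000000, of Ube2l3 and Snap29 at chr16:17000001-17500000, and of Col8a1 at chr16:57500001-58000000 were higher by 1.62 ± 0.33, 1.18 ± 0.25 and 1.03 ± 0.19 (SE). The bin chr16:66500001-67000000, with no gene start, was higher by 0.89 ± 0.17 (SE). The differences in this paragraph are without the distance offset, unless stated. With the offset, Runx1 was higher by 1.64 ± 0.21 (SE, edgeR adjusted p = 2.15e-05). The bin of Alcam went from 0.52 ± 0.12 to 0.18 ± 0.13 with it (SE, edgeR adjusted p = 0.00169 and 0.272). Lower bins included that of Grin2a, an NMDA receptor subunit gene, with -1.29 ± 0.22 (SE; edgeR adjusted p = 0.000143), and chr16:6000001-6500000, chr16:27500001-28000000, chr16:83500001-84000000 and chr16:12000001-12500000, with no gene start and differences of -2.02 to -1.24.

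Among the named genes, the bins of Dgcr2, Tbx1, Crkl, Crebbp, Runx1 and Dyrk1a were higher in B46 than in both B48 and B41, with log2 differences of 0.95 to 2.18, and those of Robo1 and Ncam2 were lower than in both, with -1.42 to -1.27 (edgeR, adjusted p of 0.013 or less). Fam43a was higher than in B48, by 1.00 ± 0.29 (SE; edgeR adjusted p = 0.00556), and had 0.73 ± 0.33 against B41 (adjusted p = 0.0621). With the distance offset it was also higher than in B41, by 0.91 ± 0.20 (SE; edgeR adjusted p = 0.000889). App had 0.08 ± 0.18 against B48 and 0.39 ± 0.19 against B41 (SE; edgeR adjusted p = 0.677 and 0.0762), and against B41 with the offset it was higher by 0.39 ± 0.11 (SE; adjusted p = 0.00415). Against B30 with the distance decay as an offset, the bins of Dgcr2, Tbx1, Crkl, Robo1, Ncam2, Runx1 and Dyrk1a had differences of -0.13 to 0.24, none past the threshold (edgeR adjusted p of 0.468 or more), while Crebbp was lower by -0.86 ± 0.28 and App higher by 0.37 ± 0.15 (SE; adjusted p = 0.0138 and 0.0426).

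Against B30 without the offset, the bin of Tmprss15, chr16:79000001-79500000, was higher by 0.96 ± 0.18 and that of Csnka2ip by 0.80 ± 0.20, and the bin of Snai2, a zinc finger repressor, was lower by -1.23 ± 0.17 (SE; edgeR adjusted p = 0.000367, 0.00308 and 4.78e-05). With the offset they were at 0.47, 0.18 and -0.18 (adjusted p = 0.0117, 0.236 and 0.216). The bin of Ahsg, Fetub and Hrg, genes of secreted liver proteins, at chr16:22500001-23000000, was lower by -1.07 ± 0.17 (SE; adjusted p = 9.54e-05) and had 0.13 with the offset (adjusted p = 0.526).

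Contacts of the baits with each other were read in 1-Mb windows, as log2 observed over expected captured sites. From B46, the window around B30 was at 0.32 ± 0.09, with all 7 libraries between 0.22 and 0.44. The windows around B48, with 0.09 ± 0.09 and 6 of 7 libraries above 0, and around B41, with -0.07 ± 0.21 and 3 of 7 above 0, had a mean within 1 SD of the expected level (SD, n = 7). In read counts the 3 windows were at 0.55, 0.41 and -0.58, and with a 2-Mb window that around B48 was at -0.041. Read from the other end, the window around B46 was at 0.06 ± 0.06 from B30, 0.10 ± 0.11 from B48 and 0.04 ± 0.06 from B41 (SD, n = 7).

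On other chromosomes, B46 captured most sites relative to expectation on chromosome 19, with a log2 of 0.78 ± 0.12, and then on 17, with 0.61 ± 0.07, 15, with 0.55 ± 0.04, 10, with 0.42 ± 0.03, and 11, with 0.39 ± 0.06. It captured fewest on X, with -1.16 ± 0.11, 14, with -0.70 ± 0.11, and 12, with -0.51 ± 0.08 (SD, n = 7). The levels of the other baits followed a similar order, with a Pearson r with B46 of 0.983 to 0.996 over 19 chromosomes. The baits share the cell line and the HindIII sites. Of the 5-Mb bins, the highest by mean profile was chr11:1-5000000, at 1.47 ± 0.40, which was also at 1.65 in B30 and 1.08 in B48. It holds a site in Sfi1 that had a read in 93 of the other 102 libraries. The second was chr15:100000001-103494974, with 107 gene starts, at 1.39 ± 0.37 in B46 and 0.58 ± 0.30 in B48 (SD, n = 7). Both bins were chosen after their values were seen.

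Spearman's rho of the B46 profile on other chromosomes with GC content was 0.67, 0.68, 0.66, 0.62, 0.63, 0.50 and 0.27 in libraries 1 to 7, after drawing 4657 captured sites per library. The mean was 0.58 ± 0.15 for B46, 0.19 ± 0.11 for B48, 0.37 ± 0.17 for B41 and 0.50 ± 0.18 for B30 (SD, n = 7). B46 differed from B48 by 0.39 (two-sided exact permutation test, p = 0.00117, adjusted 0.00466). The difference from B41 was 0.21 (exact permutation p = 0.0332, adjusted 0.0664) and that from B30 0.07 (exact permutation p = 0.442). Without library 7 of B46, but with all 7 libraries of B41 kept, the difference from B41 was 0.26 (exact permutation p = 0.0035, adjusted 0.00932). This test was added after the data had been seen.

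In read counts of 5-Mb bins, 89 of 515 passed against B48 (17.3%), 49 higher and 40 lower in B46, with a median GC content of 46.1% and 38.2% (edgeR's quasi-likelihood test, Benjamini-Hochberg). Against B41, 104 passed (20.2%), 44 higher and 60 lower, and against B30 18 passed (3.5%), 15 higher and 3 lower. Against B30, 46 bins passed at an unadjusted p under 0.05. With captured sites in place of reads, 212, 182 and 30 of 507 bins passed, of which 84, 66 and 10 were among those passing in reads. Without the sites that every library of a bait captured, an alternative chosen after the data had been seen, 73, 59 and 6 bins passed, and the share of higher bins against B41 was 61.0% in place of 42.3%. Scaling by bin totals gave 111 calls against B41, 63.1% of them higher in B46, with the median difference at 0.13 in place of 0.01. Without library 3 there were 10 calls against B30 and without library 5 there were 11.

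Against B48, the bins chr15:80000001-85000000, with Atf4 and Adsl, and chr5:135000001-140000000, with Limk1 and Eln, were higher in B46 by 1.19 ± 0.20 and 1.12 ± 0.19 (SE; edgeR adjusted p = 1.15e-05 and 1.74e-05). The former held 3057, 4116 and 4678 CPM at the lowest, median and highest B46 library, against 1103, 1874 and 2193 in B48. Named bins were required to have no overlap, which 15 of the 89 called and 16 of all 515 tested had. The bins chr5:110000001-115000000 and chr9:40000001-45000000, which hold heavily read single sites in Mn1 and Tbcel, were higher by 2.28 ± 0.26 and 1.42 ± 0.38 (SE; edgeR adjusted p = 2.25e-09 and 0.0106). Without such sites the second was at 0.68 (adjusted p = 0.0713). The bins of Pcdh7 on chromosome 5 and of Gria2 on chromosome 3 were lower, by -0.82 ± 0.24 and -0.75 ± 0.22 (SE; edgeR adjusted p = 0.0135 and 0.0144). Against B41, the largest negative differences, at chr8:85000001-90000000, chr4:30000001-35000000, chr13:60000001-65000000, chr12:85000001-90000000 and chr17:75000001-80000000 (-3.15 to -2.28), all turned to between 0.10 and 0.44 without the sites that all libraries of a bait captured. The bin of Dlk1 and Dio3 on chromosome 12 was higher by 1.27 ± 0.25 (SE; edgeR adjusted p = 0.000133).

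Of 792390 sites on other chromosomes, 642560 were captured in 0 B46 libraries. Of the captured sites most were captured in only 1: 122566 sites in 1, 22125 in 2, 3622 in 3, 777 in 4, 300 in 5, 231 in 6 and 209 in all 7. Of the 209, 94 had no read in any of the 21 libraries of the other chromosome 16 baits, and 31 had none in any of the other 102 libraries. The 209 sites held 1.51% to 10.3% of the reads on other chromosomes, with the highest share in library 7. The site with the highest level held up to 3.31% of the reads on other chromosomes, in library 6.

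Of the 4 sites with the highest mean level, 3 are shown with 16 reference bases on each side (mm9, plus strand, HindIII site in capitals), because they were read in all 7 libraries and their flanks can be set against the bait primer. The first lies in Mn1, a transcriptional regulator gene, at chr5:111871099-111871136, the second in Tbcel, a tubulin chaperone-like gene, at chr9:42263742-42263779, and the third outside protein-coding genes at chr17:12706667-12706704:
Mn1 site: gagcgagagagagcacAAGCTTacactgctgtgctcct
Tbcel site: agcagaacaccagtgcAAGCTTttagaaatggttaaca
Chromosome 17 site: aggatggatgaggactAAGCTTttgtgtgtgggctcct
The Mn1 site had 197 RPM, reads scaled to the library total, in the lowest library, 801 at the median and 2413 in the highest, and no read in the other 102 libraries. The Tbcel site had 33.5, 199 and 1935, and a read in 6 of the 102. The chromosome 17 site had 9.92, 26.0 and 661, with its 2 highest values in libraries 2 and 5. Of the 16 bases beside these 3 sites, at best 4, 4 and 5 were identical to the primer, read toward the HindIII site from either side, against a median of 5 over all sites of other chromosomes. Of the 209 sites, 2 matched 5 or more of the primer's bases next to the HindIII site (0.957%), with up to 13 of 16 bases identical, against 0.168% of all sites on other chromosomes. Both lie outside the 94, too few sites to show a share of that size. Whether priming at other places adds to these reads was not tested.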

How the data were processed

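The authors deposited raw read counts at 823352 sites for 109 libraries. Reads were aligned with BWA 0.5.9 to mm9, per the submitters' processing notes, and the rules for filtering and counting reads are not given in the sources used here. All sites equalled the HindIII sites of the supplied mm9 sequence on all 21 chromosomes. Baits were found by matching the primers in the labels, and genes come from the GENCODE annotation of that build. Sites with poor mapping lower the counts of their bins.

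The members, lists and regions were chosen with earlier results of these data known. Libraries of each bait were found by reads within 100 kb, and these reads entered no main test. An alternative that left out only 50 kb beside the bait did include reads from 50 to 100 kb. Shares and rho values were compared by exact permutation tests with Benjamini-Hochberg adjustment over 16 tests, of which 3 were added later. Bin counts were tested with edgeR 4.0.16 (TMM, filterByExpr; R 4.3.3), with DESeq2 as an alternative, in bins of 500 kb on chromosome 16 and of 5 Mb elsewhere. The long-range profile used a lowess of span 0.5 on log10 distance, a pseudocount of 0.5, bins with 20 or more sites and the mean of 10 draws. Bins of the profile were named by rule: the 5 highest and 5 lowest with the same sign in all but at most 1 library. They lay at least 2 Mb apart. In the tests, the 5 largest differences in each direction without overlap between libraries were named, with a fixed list of genes. The libraries carry no molecular identifiers, so PCR copies of 1 ligation count as separate reads. On simulated counts, changes of 1 on the log2 scale were recovered in 93.3% of bins for other chromosomes and 91.4% for chromosome 16. Changes of 0.58 were recovered in 51.5% and 40.3%. The simulation gave all bins the same spread between libraries, so it does not hold single heavily read sites or a library that stands apart. The bin of 1 gene of that list is not reported here.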

Additional observations from a re-analysis of the deposited data

Results flagged for a closer look

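Of 60 groups of 7 libraries tested for a value far from the others, 13 held one, where chance gives about 1 in 20, and 8 of the 13 were library 7. In library 7 these were the chromosome 16 share of reads beyond 100 kb (86.0%, median of the 7 70.3%), rho of the long-range profile with GC content (0.00058, median 0.61), with the number of genes (-0.020, median 0.49), with the mean of the other B46 libraries (0.31, median 0.91) and with the mean of B30 (0.14, median 0.82). The log2 ratio of the telomere over the centromere side was also far from the rest, with -0.18 at 100 to 200 kb (median 1.93) and 0.015 at 200 to 500 kb (median 1.44), as was the bin of Crebbp at -0.67 (median 0.24). Library 7 had the fewest reads, 186019, and the fewest captured sites. The part of depth in these values was not tested. Library 7 of each other bait was also in the shallow range. It also had the lowest rho with the mean of its bait's other libraries, 0.38 for B48, 0.23 for B41 and 0.41 for B30. Its chromosome 16 share of reads beyond 100 kb was 82.4% for B48, 75.9% for B41 and 86.7% for B30.

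Library 1 had more captured sites than the others, with 22185 on chromosome 16 (median 15268) and 82008 on other chromosomes (median 19025), and a log2 side ratio of -0.12 at 500 to 1000 kb (median 0.47). Library 4 had 0.27 at the bin of Cd47 (median 0.06), and library 5 had 2413 RPM at the site in Mn1 (median 801).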

How the results depend on the processing

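No paired analysis was possible because the titles, which carry the replicate numbers, do not match the bait that the reads show. No pair of libraries shared 50% or more of its sites, so keeping all libraries apart is the analysis reported. The 182669 to 3301246 reads per library limit the precision, most in the 2 shallow libraries of each bait. Alternatives on depth, on recurrent sites and for rho on other chromosomes were chosen after the data had been seen. The cause of each change below was not tested, except that bins of 1 Mb are fewer.

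With 1-Mb bins 67, 53 and 50 bins passed against B48, B41 and B30, and with the distance offset 17 against B30. On other chromosomes, captured sites in place of reads gave 212, 182 and 30 calls, and leaving out sites captured in all libraries of a bait gave 59 against B41 and 6 against B30. Libraries were left out of B46 only, 1 at a time, and the other baits kept all of theirs. Leaving out each B46 library gave 110 to 123, 90 to 108 and 66 to 93 calls on chromosome 16, and 63 to 108, 79 to 126 and 10 to 16 on other chromosomes.

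The share within 2 Mb against B48 became -0.426 with captured sites, -1.44 with capped reads and -3.28 with 200 kb left out; against B41 it became -0.336, -1.89 and -4.22. Against B30 it passed with splits within depth (-16.1), capped reads (-4.45) and 200 kb left out (-21.8). The chromosome 16 share became -2.81 against B41 with capped reads, and 3.38 and 5.93 against B30 with captured sites and capped reads. The side ratio became -0.087 with captured sites and -0.056 with capped reads (exact permutation, adjusted p = 0.0417 each). The sides hold 632 and 676 HindIII sites, so a test of captured sites against 0 cannot decide whether contacts were uneven.

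Leaving out each B46 library gave 0.438 to 2.69, 0.682 to 2.93 and -17.2 to -15.0 for the share within 2 Mb against B48, B41 and B30. It gave 1.87 to 5.58, -0.619 to 3.09 (below 0 without library 7) and -3.34 to 0.374 (above 0 without library 4) for the chromosome 16 share. The side ratio was 0.76 to 0.94, where 6 libraries cannot pass (adjusted p = 0.0664). Spearman's rho with GC content differed by 0.74 to 0.85, 0.68 to 0.79 and -0.071 to 0.037 (above 0 without library 7), and rho with genes by 0.70 to 0.80, 0.64 to 0.74 and 0.01 to 0.11. Spearman's rho on other chromosomes differed by 0.37 to 0.44, 0.19 to 0.26 and 0.06 to 0.12, and with read counts by 0.29 against B41 (adjusted p = 0.0249).

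Windows around B48, B41 and B30 read from B46 were at 0.07 to 0.11, -0.11 to -0.02 and 0.30 to 0.34 with each library left out, and at 0.41, -0.58 and 0.55 in reads. Read toward B46 from B48, B41 and B30 they were at 0.53, 0.12 and 0.17 in reads. With a 2-Mb window B46 toward B48 was at -0.041 and B30 toward B46 at -0.0077.

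Among single bins, chr16:70000001-70500000 and chr16:22500001-23000000 turned to -0.14 and 0.13 against B30 with the offset. A chromosome 18 bin that was called higher against all 3 baits turned to -0.32, -0.59 and -0.075 against B48, B41 and B30 with captured sites, and to -0.87, -0.93 and -0.40 without recurrent sites. Against B41, the bins on chromosomes 8, 13, 12 and 17 turned to 0.24, 0.24, 0.43 and 0.024 with captured sites. Those on 8, 4, 13, 12 and 17 turned to 0.44, 0.10, 0.15, 0.31 and 0.31 without recurrent sites.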
